A study of Mus musculus with 6 samples.

Results

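The 35 genes described here make serine, carry single carbon units on folate, run the methionine cycle and transsulfuration, or belong to the program of the stress transcription factor ATF4. They were taken by name: every transcript spot whose gene name was one of the 35 was used, whatever its signal. The 35 names, like the other lists below, were chosen with earlier results of these data known. The array carried 37069 gene names with complete values. All 35 members were among them, and all 35 were among the 20645 genes bright enough to be tested. RNA came from bone marrow cells grown into osteoclasts, the cells that resorb bone, with RANKL for 5 days. The control arrays were those of 3 *Ano1fl/fl* mice, whose chloride channel gene *Ano1* is flanked by loxP sites and intact. The cKO arrays were those of 3 *Ctsk-Cre;Ano1fl/fl* littermates, in which Cre is made from the cathepsin K gene. Both groups therefore carry the floxed allele and both received RANKL, and only the cKO mice carry Cre. Cathepsin K comes on as precursors become osteoclasts, so cells that do not make it keep *Ano1*. The labels give no strain, sex or age.

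Cells make serine from a glycolytic intermediate by 3 enzymes in a row. Serine then gives a carbon unit to folate, in mitochondria and in the cytosol, and folate hands it on for nucleotides and for methionine. Homocysteine, left when methionine has donated its methyl group, either returns to methionine or is turned into cysteine by transsulfuration. ATF4 is a transcription factor whose translation increases when the initiation factor eIF2 is phosphorylated, as happens when amino acids are short or the endoplasmic reticulum is strained. With C/EBP partners it binds a composite element in genes of amino acid synthesis, amino acid transport and tRNA charging. Osteoclasts build their matrix-degrading enzymes and proton pumps through the same secretory route.

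The C/EBP-ATF element is shown here as a sequence that the rule did not use. Some members were listed as genes of the ATF4 program, so the share that holds the element is not independent of that choice. The letters TGATGNAA were searched on both strands, so that TTNCATCA also counts, in the RefSeq promoter windows of GRCm38.p6, each with 250 bases before and 50 bases after an annotated start. A window was listed for 32 members, all but *Wars*, *Cth* and *Aldh1l2*. The letters were found in 10 of these 32, or 31.2%, against 4.51% of 27025 genes with a window. A match is a description of letters, not of binding. The following stretches of 60 bases, 5′ to 3′ on the strand of the gene, show 8 of the 10 members, with the matching letters in capitals.
Asns, chr6:7693210-7693269, minus strand: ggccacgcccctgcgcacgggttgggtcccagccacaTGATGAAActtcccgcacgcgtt
Chac1, chr2:119351023-119351082, plus strand: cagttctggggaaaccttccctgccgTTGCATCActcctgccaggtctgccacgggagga
Pycr1, chr11:120643818-120643877, minus strand: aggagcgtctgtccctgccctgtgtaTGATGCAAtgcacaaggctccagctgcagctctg
Fgf21, chr7:45615596-45615655, minus strand: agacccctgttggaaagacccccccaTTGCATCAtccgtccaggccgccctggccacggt
Got1, chr19:43524674-43524733, minus strand: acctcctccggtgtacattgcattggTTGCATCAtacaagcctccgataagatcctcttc
Nupr1, chr7:126625547-126625606, minus strand: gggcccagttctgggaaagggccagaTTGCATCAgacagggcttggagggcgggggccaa
Aars, chr8:111033704-111033763, plus strand: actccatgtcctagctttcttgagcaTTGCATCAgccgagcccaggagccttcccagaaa
Gars, chr6:55037941-55038000, plus strand: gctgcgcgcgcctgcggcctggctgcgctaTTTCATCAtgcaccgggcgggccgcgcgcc
The letters read TGATGNAA in *Asns* and *Pycr1* and its reverse complement in the other 6 of these. The element began 23 bases before the start in *Asns*, 103 in *Pycr1*, 193 in *Chac1*, 139 in *Fgf21*, 102 in *Got1*, 110 in *Nupr1*, 112 in *Aars* and 30 in *Gars*. *Trib3* has its match after the start and *Vldlr* before the later of its starts, and their bases are not shown. *Aars* also has another match after the start, which is not shown. All 10 members with a match were called higher on the cKO arrays, as were 26 of all 32 members with a window and 23.4% of all genes tested. Whether genes with the element differ from those without it was not tested.

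Each of the 6 arrays had between 33480 and 34951 of its 59305 transcript spots well above background and none saturated. Pearson's r over the tested genes, which are no replicates of one another, lay between 0.995 and 0.997 for arrays of the same group and between 0.947 and 0.951 for arrays of different groups. The *Ano1* probe stayed below background throughout, so it cannot check the labels, and every direction here is that of the label. Marker lists moved with the groups. Of 13 osteoclast markers, 12 were higher and 1 was lower on the cKO arrays, with a summed signal of 178392 to 192631 on the control arrays and 559493 to 630810 on the cKO arrays. That direction is the opposite of the one the study gives for osteoclast formation in this genotype. Of 17 stromal and osteoblast markers, 13 were higher and 1 lower (23629 to 25623 against 93819 to 137937), and all 5 B cell markers were higher (7454 to 8975 against 28890 to 56463). All 8 markers of dividing cells were lower (148526 to 163947 against 62665 to 83773), as were 9 of 12 neutrophil markers (355832 to 374096 against 214678 to 268974), where 1 was higher. Monocyte and macrophage markers, with 1 higher and 3 lower of 10, summed to 508401 to 534259 and 538801 to 596886. The 3 lower were *Cx3cr1*, *Ccr2* and *Mrc1* (log2 differences, cKO minus control, of -4.62, -3.36 and -1.36), and the 1 higher was *Adgre1* (0.80). The T and NK cell markers had 1 higher and 2 lower of 5 (2784 to 3034 against 1079 to 1507), and the endothelial markers also had 1 higher and 2 lower of 5 (6108 to 7718 against 2920 to 3514). Of 4 adipocyte markers 1 was higher (6003 to 7845 against 13154 to 15052), and *Adipoq* and *Plin1* were below background on every array. Of 6 erythroid markers 2 were lower (5683 to 7372 against 2459 to 4063), and *Hbb-b1*, *Alas2* and *Klf1* were among those below background on every array. The part of these cell types in the results that follow was not tested. In cultures of mixed cells, fewer cells of a type and less RNA per cell cannot be told apart.

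The comparison asks how the level of each member differed between the cKO and control cultures. Serine synthesis genes, the folate genes *Shmt2*, *Mthfd1l*, *Mthfd2* and *Aldh1l2*, *Cth*, the amino acid synthesis genes, all 5 transcription regulators, all 6 effectors and all 5 tRNA synthetases were higher on the cKO arrays. The genes of the methionine cycle and the folate genes *Shmt1* and *Mthfd1* were not. In all, 29 members were called higher at an adjusted p under 0.05 (limma, Benjamini-Hochberg over 20645 genes), where 23.4% of all genes were called higher. When genes had to be above background on all 6 arrays, 25 members were called higher. Only *Mtr* was called lower, where 29.0% of all genes were, and 5 members passed in neither direction. Past 2-fold, 20 members were called higher and 0 lower, where the shares over all genes were 9.88% and 7.19%. The methods' t-test at an unadjusted p under 0.05 also found 0 members lower past 2-fold by their brightest probes. The 3 arrays of one group did not overlap the 3 of the other in 33 members, as in 64.0% of all genes. The median log2 difference, cKO minus control, was 1.13 over the members and -0.06 over all genes tested. With 3 arrays against 3, an exact permutation test of a single gene cannot give a two-sided p under 0.1. The plot of member levels by array shows this, with overlap only in *Shmt1* and *Ahcy*.

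**Figure D1:**
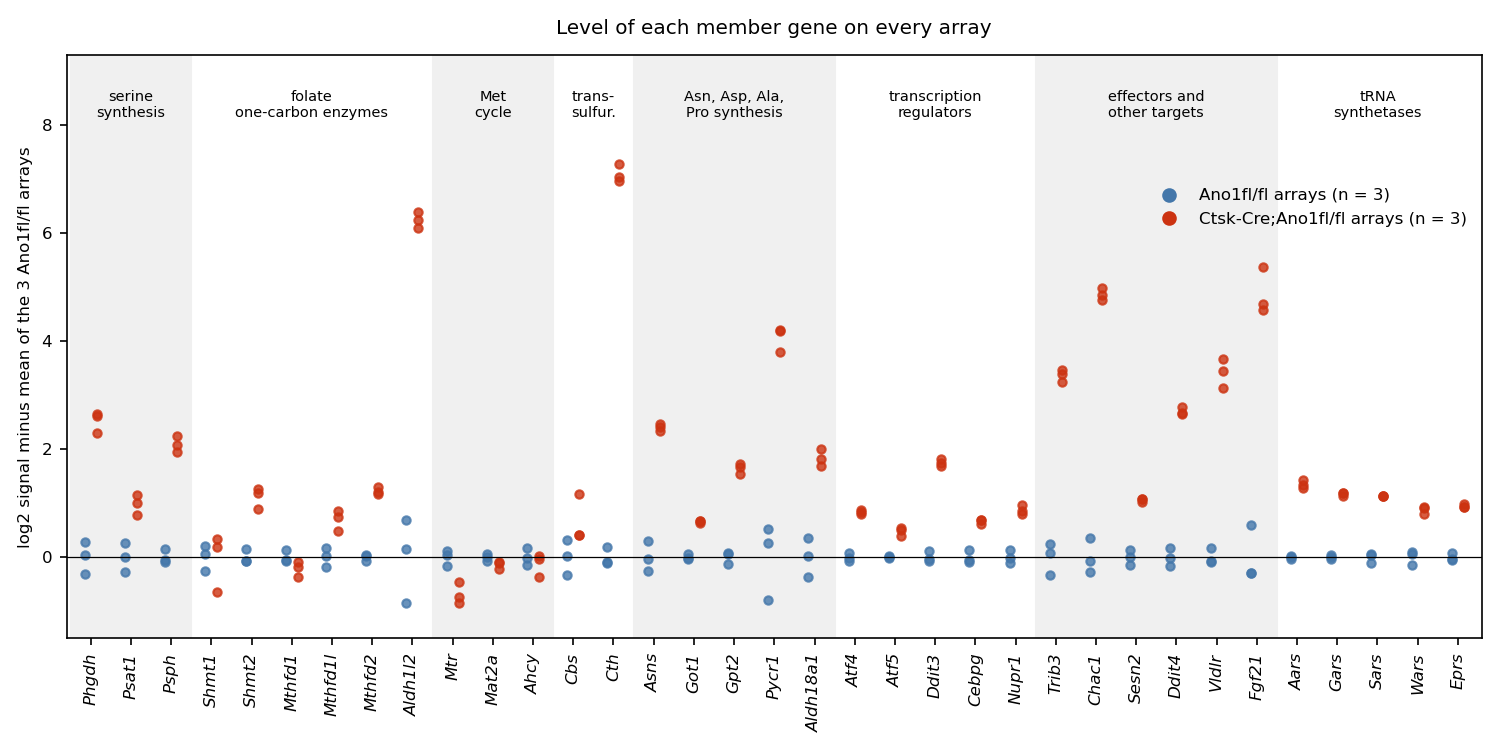
Normalized log2 signal of the 35 members on each array, minus the mean of the 3 control (*Ano1fl/fl*) arrays, with blue points for control and red points for cKO (*Ctsk-Cre;Ano1fl/fl*) arrays, grouped by role. The cKO points lie apart from the control points in 33 members, and the control points of *Aldh1l2*, *Pycr1* and *Fgf21* were at background.

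All 3 enzymes of serine synthesis rose. *Phgdh* encodes the dehydrogenase that opens the pathway, read by a probe at chr3:98117098-98117157 (mm9). It read 11.22, 11.80 and 11.56 on the control arrays and 14.14, 13.82 and 14.19 on the cKO arrays, as normalized log2 signal. The lowest cKO array was above the highest control array by far more than the spread within either group. *Phgdh* was 5.74-fold higher (log2 difference 2.52, SE 0.175, limma adjusted p = 0.000124). *Psph*, whose product removes the phosphate in the last step, read 10.88, 11.12 and 10.91 against 13.05, 12.92 and 13.21, a 4.25-fold rise (log2 difference 2.09, SE 0.108, limma adjusted p = 4.72e-05). *Psat1*, the aminotransferase between the other two, rose less, by 0.98 (SE 0.162, limma adjusted p = 0.00343), which is just under 2-fold. That is its brightest probe, and its other tested probe was past 2-fold (1.17).

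Of the 6 folate enzymes among the members, the 4 mitochondrial ones were called higher. *Shmt2* and *Mthfd2*, which move the carbon unit from serine onto folate and oxidise it inside mitochondria, both rose past 2-fold. *Shmt2* read 11.61, 11.83 and 11.61 on the control arrays and 12.95, 12.58 and 12.88 on the cKO arrays, with a log2 difference of 1.12 (SE 0.124, limma adjusted p = 0.000723). *Mthfd2* read 11.40, 11.41 and 11.31 against 12.55, 12.58 and 12.68, a difference of 1.23 (SE 0.0716, limma adjusted p = 6.91e-05). The *Mthfd2* arrays differed by little within a group. *Mthfd1l*, whose product releases formate from mitochondria, rose by 0.69 (SE 0.133, limma adjusted p = 0.00615).

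*Aldh1l2*, the mitochondrial enzyme that oxidises formyl folate to carbon dioxide, was not well above background on any control array, where it read 3.29, 2.75 and 1.76. On the cKO arrays it read 8.84, 8.99 and 8.69. With each control array set to its dimmest signal that was still clearly above background, the rise was at least 29.2-fold (limma adjusted p = 7.54e-05). The limit holds for the processed signal used here, and the p is that of the fit to the measured values, as for every lower limit below. *Aldh1l2*, *Pycr1*, *Fgf21*, *Cth* and *Cbs* entered the test only through the cKO arrays, where they were brighter, so a call for them is a description. By their brightest probes, the members *Shmt1* and *Mthfd1*, both cytosolic, did not pass in either direction. *Shmt1*, the cytosolic serine hydroxymethyltransferase, read 6.87, 7.34 and 7.18 against 7.46, 6.49 and 7.31, and the groups overlapped. Its difference was -0.04, with a 95% interval of -0.71 to 0.62, and it turned positive when either replicate 2 was left out (0.06 without the control one, 0.26 without the cKO one). *Mthfd1*, the cytosolic trifunctional enzyme, had a difference of -0.21 (95% interval -0.46 to 0.04). Its other probe was called lower (-0.90), and the gene passed as lower with 75th percentile scaling (-0.32) and with the mean of both probes (-0.56). Among folate genes outside the members, the cytosolic *Aldh1l1* (0.60, limma adjusted p = 0.00595) and *Mthfs* (0.45, limma adjusted p = 0.00317) were called higher, and the mitochondrial *Mthfd2l* did not pass (0.14, limma adjusted p = 0.458). Whether the mitochondrial and the cytosolic genes differ from each other was not tested.

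The methionine cycle was the one group with no member higher. *Mtr*, methionine synthase, which returns homocysteine to methionine with a carbon unit from folate, read 10.37, 10.57 and 10.64 on the control arrays and 10.07, 9.69 and 9.79 on the cKO arrays. By its brightest probe it was 1.60-fold lower (log2 difference -0.68, SE 0.128, limma adjusted p = 0.00569), and all 3 of its probes were called lower. The dimmer probes were past 2-fold (-1.06 and -1.01). *Mat2a*, which makes the methyl donor S-adenosylmethionine, had a difference of -0.14 (95% interval -0.32 to 0.04). *Ahcy*, which splits the spent donor into homocysteine and adenosine, had a difference of -0.12 (95% interval -0.45 to 0.20) and overlapping groups.

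Of the 2 transsulfuration enzymes, *Cth* was called higher and *Cbs* did not pass, and the difference between them was not tested. *Cth*, cystathionine gamma-lyase, which releases cysteine in the second step, was close to background on the control arrays. Its probe is at chr3:157557667-157557726 (mm9). It read 3.63, 3.93 and 3.65 on the control arrays, of which 1 was well above background, and 10.79, 10.72 and 11.02 on the cKO arrays. The log2 difference was 7.10 (SE 0.123, limma adjusted p = 2.68e-06), but 2 of the 3 control values were not above background, so its size is not well determined (4.65 with normexp). *Cbs*, cystathionine beta-synthase, which begins the route, stayed close to background on every array. It read 4.09, 4.40 and 3.74 on the control arrays, with 1 well above background, and 4.49, 4.49 and 5.25 on the cKO arrays. Its difference of 0.67 (95% interval 0.03 to 1.31) did not pass (limma adjusted p = 0.0755), although it passed with 75th percentile scaling (limma adjusted p = 0.0490).

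Genes for asparagine, aspartate, alanine and proline synthesis were all higher. *Asns*, asparagine synthetase, a much used reporter of ATF4 activity, carries the element shown above. Its levels were 12.05, 12.60 and 12.26 on the control arrays and 14.65, 14.71 and 14.77 on the cKO arrays. It was 5.31-fold higher (log2 difference 2.41, SE 0.144, limma adjusted p = 7.61e-05), and its other probe gave 2.66. *Gpt2*, the mitochondrial alanine aminotransferase, read 8.68, 8.85 and 8.87 against 10.35, 10.48 and 10.54, a difference of 1.65 (SE 0.0890, limma adjusted p = 5.36e-05). *Got1*, the cytosolic aspartate aminotransferase, rose by 0.66 (SE 0.0637, limma adjusted p = 0.000427) by its brightest probe. Its other probes were past 2-fold (1.14 and 1.11).

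Proline is made from glutamate by way of *Aldh18a1* and *Pycr1*, the first and last enzymes of the route. *Aldh18a1* read 9.31, 10.03 and 9.71 on the control arrays and 11.51, 11.38 and 11.69 on the cKO arrays, and was 3.58-fold higher (log2 difference 1.84, SE 0.192, limma adjusted p = 0.000572). *Pycr1* was not well above background on any control array (2.52, 3.56 and 3.84) and read 7.51, 7.11 and 7.49 on the cKO arrays. It was at least 10.6-fold higher (limma adjusted p = 0.000262). This rests on 1 probe, as the other *Pycr1* probe was not above background on any array, the cKO arrays included. For *Aldh18a1*, the control arrays were spread more widely than the cKO arrays.

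All 5 transcription regulators were called higher by their brightest probe, 4 of them by less than 2-fold. *Atf4*, whose control at translation an array does not show, read 16.35, 16.40 and 16.49 on the control arrays and 17.26, 17.22 and 17.30 on the cKO arrays. Its probe is at chr15:80087902-80087961 (mm9). It was 1.79-fold higher (log2 difference 0.84, SE 0.0694, limma adjusted p = 0.000235). *Ddit3*, which encodes CHOP, a factor of prolonged stress, was past 2-fold by its brightest probe, as *Atf4* was with the mean of its probes (1.05). It read 10.86, 11.05 and 10.90 against 12.63, 12.67 and 12.75, a difference of 1.75 (SE 0.0802, limma adjusted p = 2.98e-05), and its other probe gave 0.99. *Nupr1*, a small stress-induced chromatin protein, rose by 0.87 (SE 0.0922, limma adjusted p = 0.000595), but its second probe was called lower (-1.0), and with the mean of both it was at -0.065 and did not pass (limma adjusted p = 0.711). *Cebpg*, a C/EBP partner of ATF4, rose by 0.66 (SE 0.0847, limma adjusted p = 0.00127), and *Atf5*, a factor of the same family as ATF4, by 0.48 (SE 0.0706, limma adjusted p = 0.00212). No regulator had overlapping groups.

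All 6 effectors rose past 2-fold. *Chac1*, a glutathione-degrading enzyme, was the largest of those above background on all 6 arrays. It read 8.43, 9.06 and 8.64 on the control arrays and 13.58, 13.48 and 13.71 on the cKO arrays, 29.4-fold higher (log2 difference 4.88, SE 0.170, limma adjusted p = 1.49e-05). *Trib3*, a pseudokinase that feeds back on ATF4 and Akt, read 10.77, 11.36 and 11.19 against 14.36, 14.57 and 14.49. Its difference was 3.37 (SE 0.160, limma adjusted p = 3.39e-05), or 10.3-fold. For both genes the groups lay far apart beside the spread within either.

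*Vldlr*, a lipoprotein receptor, read 7.07, 7.04 and 7.30 on the control arrays and 10.59, 10.81 and 10.27 on the cKO arrays, and rose steeply (log2 difference 3.42, SE 0.153, limma adjusted p = 2.79e-05). *Ddit4* and *Sesn2* both encode inhibitors of the growth kinase mTORC1. *Ddit4* read 11.11, 11.44 and 11.25 against 14.06, 13.94 and 13.91, a difference of 2.70 (SE 0.104, limma adjusted p = 1.90e-05). *Sesn2* read 10.57, 10.30 and 10.45 against 11.52, 11.53 and 11.47, a difference of 1.06 (SE 0.0869, limma adjusted p = 0.000225). It was thus the smallest rise among the effectors. *Fgf21*, a secreted stress hormone, was not well above background on any control array (1.70, 1.71 and 2.61) and read 6.70, 6.58 and 7.38 on the cKO arrays. It was at least 7.55-fold higher (limma adjusted p = 0.000102).

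The 5 tRNA synthetases among the members rose within a narrow band, between 0.88 and 1.35. They charge tRNA with alanine (*Aars*), glycine (*Gars*), serine (*Sars*), tryptophan (*Wars*), and glutamate and proline together (*Eprs*). *Aars* read 12.45, 12.50 and 12.48 on the control arrays and 13.91, 13.81 and 13.77 on the cKO arrays (log2 difference 1.35, SE 0.0690, limma adjusted p = 4.48e-05). *Gars* read 14.96, 14.99 and 14.92 against 16.15, 16.15 and 16.08 (difference 1.17, SE 0.0639, limma adjusted p = 5.59e-05). *Sars* read 13.35, 13.37 and 13.19 against 14.45, 14.43 and 14.44 (difference 1.13, SE 0.0749, limma adjusted p = 0.000105). Within a group these genes varied little. *Eprs* (0.95, limma adjusted p = 0.000164) and *Wars* (0.88, limma adjusted p = 0.000559) stayed just under 2-fold by their brightest probes. The other *Wars* probe (1.26) and 2 of the 4 other *Eprs* probes (1.04 and 1.41) were past it, as was the mean of the *Wars* probes (1.07).

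The sizes for dim genes depend on how background was handled. With normexp background correction, which compresses low signals, the log2 difference was 4.65 for *Cth*, 2.72 for *Aldh1l2*, 1.61 for *Pycr1* and 1.53 for *Fgf21*, each still past the threshold. The last 3 of these are smaller than the lower limits given above, which therefore hold only for the processed signal.

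The members are read by 69 probes, of which 63 could be tested. Of these, 49 were called higher, 6 lower and 8 in neither direction. Over all 31848 probes tested, 21.8% were called higher and 30.6% lower. Several testable probes were available for 21 members, and in 16 of them all were called the same way. All 3 probes of *Aldh1l2*, 5 of *Eprs*, 3 of *Got1* and 3 of *Mtr* had the same call as their gene. Sizes differed between probes of *Atf4* (0.84 for the brighter and 1.25 for the other), of *Ddit3* (1.75 and 0.99) and of *Got1* (0.66 for the brightest, and 1.14 and 1.11). *Nupr1* is the exception in direction. Its bright probe, for transcript NM_019738, gave 0.87. A dim probe for transcript ENSMUST00000151105 read 5.85, 6.02 and 6.22 on the control arrays and 4.72, 5.51 and 4.85 on the cKO arrays, a difference of -1.0 (limma adjusted p = 0.00993 over all probes). With the mean of both probes *Nupr1* was at -0.065 and lost its call. The second probe of *Mthfd1* was called lower at -0.90 (limma adjusted p = 0.00600), and 1 of 3 *Mat2a* probes was called lower at -0.24 (limma adjusted p = 0.0482). The second probe of *Sars* (0.75) and both probes of *Shmt1* passed in neither direction. The 6 probes that could not be tested were those not above background in either group, namely 3 of *Aars* and 1 each of *Psat1*, *Mthfd1l* and *Pycr1*.

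**Figure D2:**
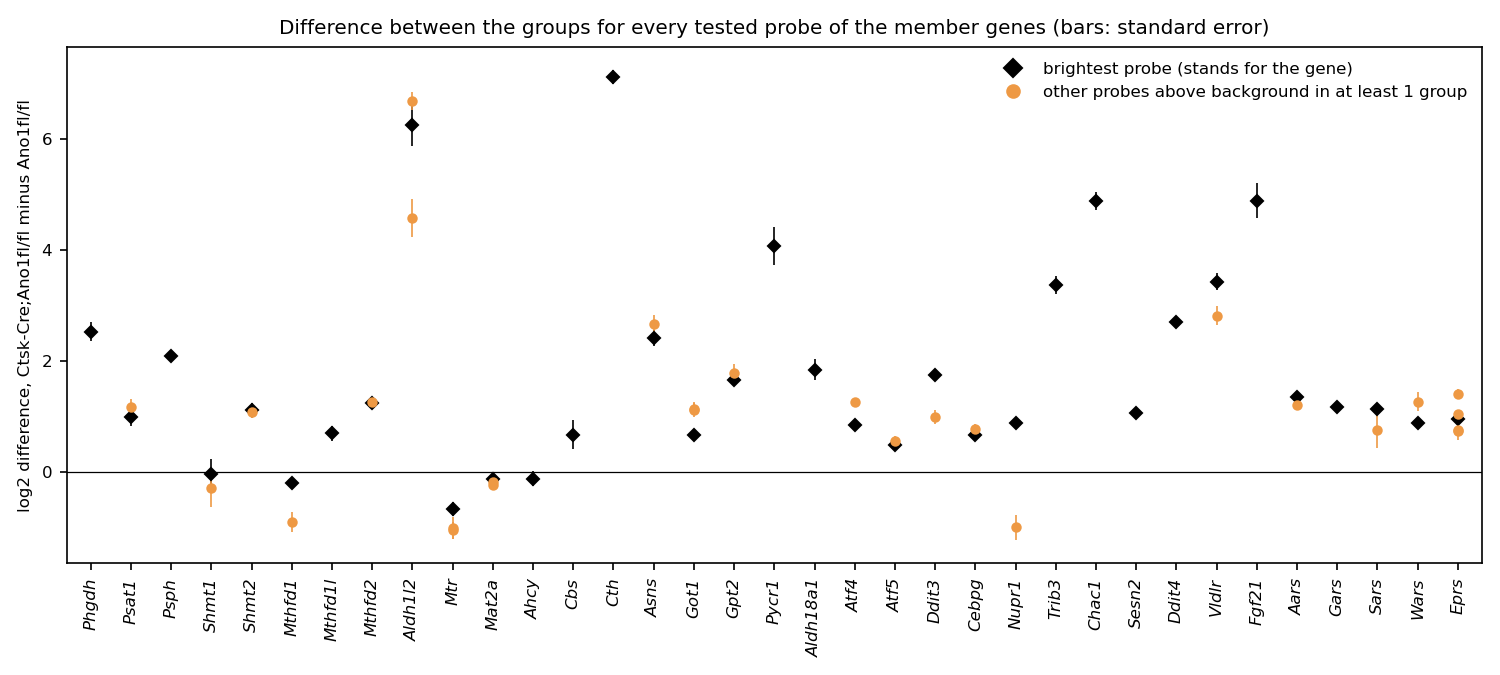
Log2 difference (cKO minus control) of each of the 63 tested probes of the members, with bars for the standard error from limma, where black diamonds are the brightest probe of a gene and orange circles the others. Most probes of a gene lie together, while *Nupr1* has probes at 0.87 and -1.0 and *Mthfd1* at -0.21 and -0.90, and the values of *Aldh1l2*, *Pycr1* and *Fgf21* rest on control arrays at background.

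Within a group, the same array was often the lowest or the highest across members. On the control side, replicate 1 was the lowest array in 21 of the 35 members and replicate 2 the highest in 21. On the cKO side, replicate 2 was the lowest in 17. The median log2 level over the members was 10.88, 11.36 and 11.19 on control replicates 1, 2 and 3 and 13.05, 12.85 and 13.04 on the cKO replicates. Leaving out any 1 of the 6 arrays left 29 members called higher and 1 lower, and between 20 and 21 higher past 2-fold.

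Further genes of the same pathways were read from lists that are not members. Of 33 tested genes of the integrated stress response, which are regulators and targets of ATF4, 23 were higher and 1 was lower, 14 of them higher past 2-fold, with a median of 0.84. Over all genes 23.4% were called higher, 29.0% lower and 9.88% higher past 2-fold. *Slc7a3*, a transporter of arginine and lysine, read 4.24, 4.75 and 4.64 on the control arrays and 11.23, 11.09 and 11.72 on the cKO arrays (log2 difference 6.80, limma adjusted p = 1.09e-05). Its control values lay close to the dimmest signals still clearly above background on those arrays (3.83 to 4.09), so its size is not well determined. *Stc2*, a secreted glycoprotein, had a fitted difference of 4.66 (limma adjusted p = 0.000272), with 1 of 3 control arrays above background, and of 2.48 with normexp. *Adm2*, a peptide hormone, was at least 8.94-fold higher (limma adjusted p = 0.000144), with no control array above background. Both entered the test only through the cKO arrays. The kinases that phosphorylate eIF2 were not higher. *Eif2ak2* was the 1 gene called lower (-0.51, limma adjusted p = 0.00996), and *Eif2ak1*, *Eif2ak3* and *Eif2ak4* had differences of -0.31, -0.04 and -0.01 and did not pass.

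The wider one-carbon, methionine and sulfur list had 10 genes higher, 9 lower and 16 in neither direction of 35 tested, with a median of -0.08. These counts are near the shares of all genes called higher (23.4%) and lower (29.0%). *Sardh*, the mitochondrial sarcosine dehydrogenase, was at least 4.02-fold higher (limma adjusted p = 0.000578), with no control array above background, and entered the test only through the cKO arrays. *Folr2*, the folate receptor of macrophages, fell by 2.91 (limma adjusted p = 0.000101). *Amt*, of the glycine cleavage system, was at least 1.93-fold lower (limma adjusted p = 0.00323), and entered the test only through the control arrays. *Folr2* is known from macrophages, whose marker values are given above, and their part here was not tested.

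Of 15 other genes of amino acid and nitrogen metabolism, 3 were higher, 4 lower and 8 in neither direction, with a median of -0.06, again near the shares over all genes. *Bcat1*, the cytosolic branched-chain aminotransferase, read 6.82, 8.06 and 7.53 on the control arrays and 12.37, 12.07 and 12.46 on the cKO arrays (log2 difference 4.83, limma adjusted p = 9.50e-05). *Prodh*, which begins the breakdown of proline, fell by 1.20 (limma adjusted p = 0.00247). *Got2*, the mitochondrial partner of *Got1*, had a difference of -0.06 (limma adjusted p = 0.751).

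**Figure D3:**
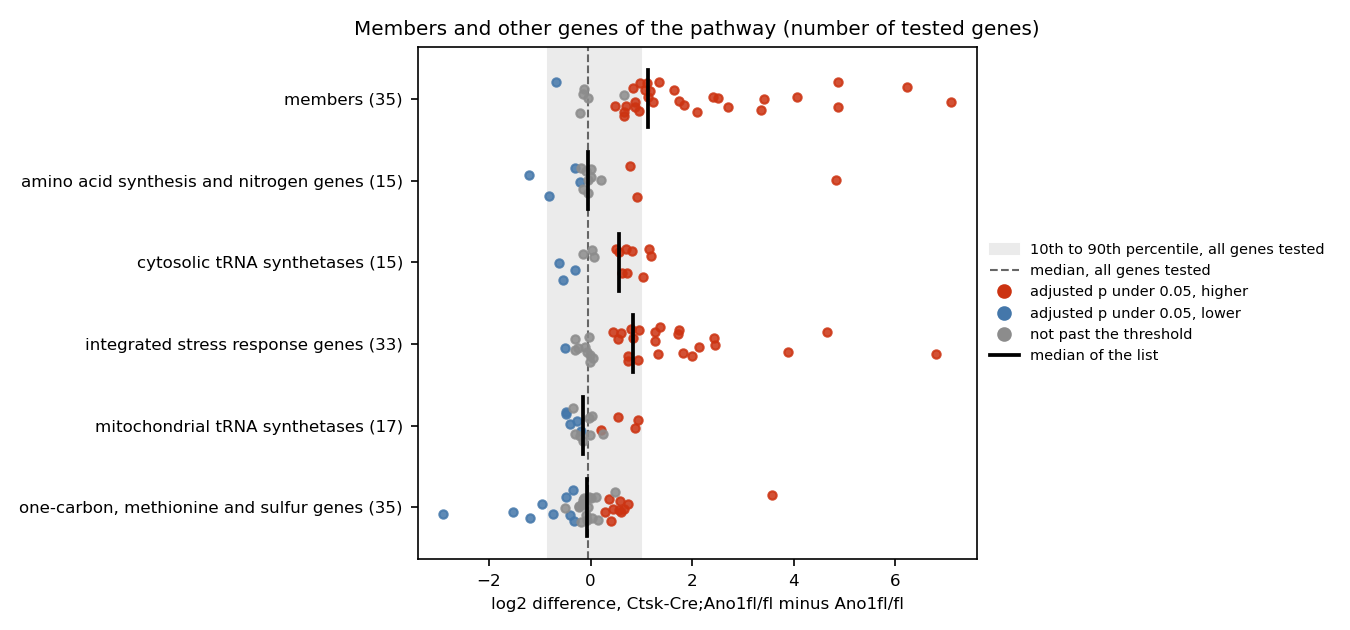
Log2 difference (cKO minus control) of the 35 members and of the tested genes in 5 other lists, 1 point per gene, red or blue where limma called the gene higher or lower, with the list median as a black bar. The band and dashed line give the 10th to 90th percentile and the median of all 20645 genes, and the members (median 1.13) and the integrated stress response genes (0.84) lie furthest to the right.

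The tRNA synthetases could be set out by compartment. Of all 20 tested genes for cytosolic enzymes, the 5 members included, 14 were higher, 3 lower and 3 in neither direction, with a median of 0.71. *Cars*, *Yars* and *Nars*, for cysteine, tyrosine and asparagine, rose by 1.18, 1.15 and 1.03 (limma adjusted p = 0.000457, 0.000436 and 0.000318). The 3 lower genes were *Dars* (-0.62), *Qars* (-0.54) and *Kars* (-0.30), for aspartate, glutamine and lysine, and *Hars*, *Vars* and *Farsa* did not pass. Of 17 genes for the mitochondrial enzymes, 4 were higher and 5 lower, with a median of -0.15, and these counts are near the shares of all genes called higher (23.4%) and lower (29.0%). The 4 were *Nars2* (0.93), *Wars2* (0.88), *Iars2* (0.54) and *Fars2* (0.20), and the 5 were *Cars2*, *Lars2*, *Vars2*, *Hars2* and *Tars2*, between -0.48 and -0.19. For cysteine, leucine and threonine the cytosolic gene was called higher and the mitochondrial gene lower, while for asparagine, isoleucine and tryptophan both were called higher. *Gars* and *Kars* each encode the cytosolic and the mitochondrial enzyme. The difference between compartments was not tested.

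**Figure D4:**
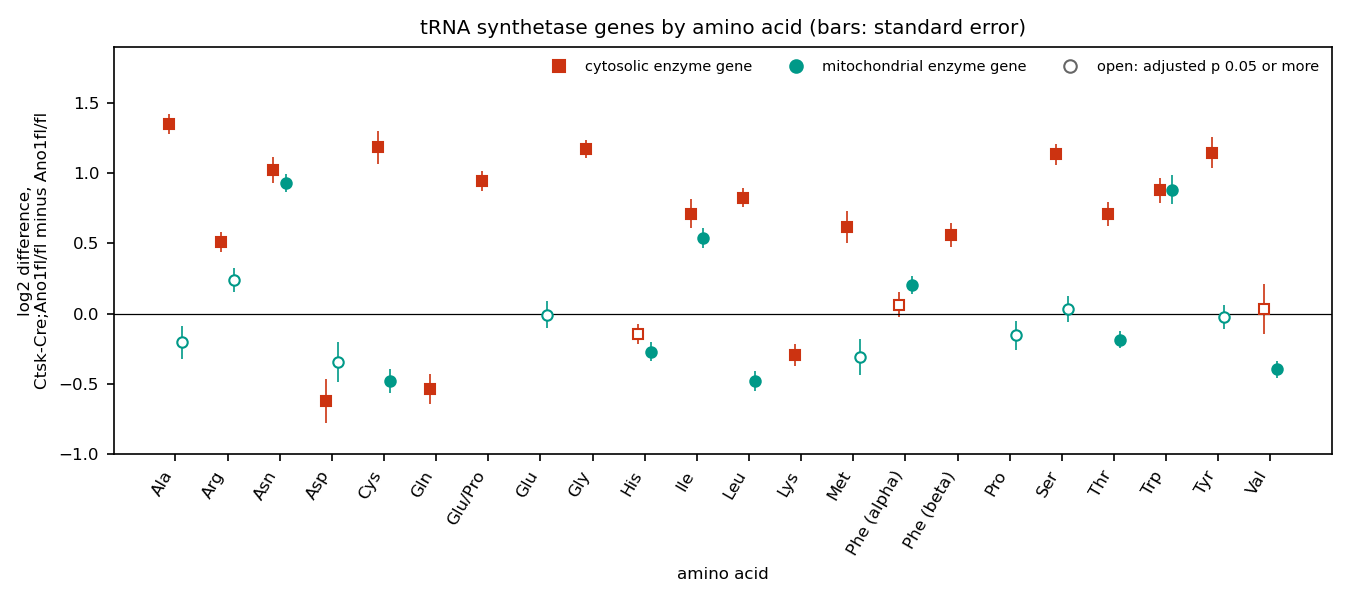
Log2 difference (cKO minus control) of 20 genes for cytosolic (red squares) and 17 genes for mitochondrial (green circles) tRNA synthetases by amino acid, with the standard error from limma and open symbols where the adjusted p was 0.05 or more. Red squares lie above 0 for most amino acids, up to 1.35 for *Aars*, and below it for *Dars*, *Qars*, *Kars* and *Hars*, while the green circles lie on both sides of 0.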

How the data were processed

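Agilent one-colour arrays, 6 in all, were hybridised with osteoclast RNA from 3 *Ano1fl/fl* and 3 *Ctsk-Cre;Ano1fl/fl* mice and grouped by title. The authors deposited scanner intensities read by Agilent Feature Extraction 10.7.1.1, as the submitters' processing notes give it, with background and spatial trends removed within each array and no normalization between arrays. The deposited series matrix holds the median intensity of each spot (largest difference 0).

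The log2 processed signals were quantile normalized, the algorithm that the methods name, and spots of a probe were averaged after outlier spots were left out. Control spots were dropped, as were 14 probes that lacked a value. The brightest probe stood for a gene name, and was tested only where some group had it clearly above background on each of its 3 arrays. Groups were compared with limma 3.58.1 in R 4.3.3 (lmFit and eBayes, no covariate), and p was adjusted by Benjamini-Hochberg over 20645 genes. For a gene that 1 whole group did not show above background, that group was set to the dimmest signal marked well above background on each array, which makes the fold a minimum. SE and 95% intervals are limma's, and the number of arrays limits the precision. Tables were read with data.table (version 1.17.8) and pandas 2.3.3 in Python 3.11.15, and plots were drawn with matplotlib 3.10.9. The fit was tested on simulated data.

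The members and lists were chosen with earlier results of these data known. Members called past 2-fold were given by array. From each other list the rule named up to 3 rises and 3 falls past 2-fold with an adjusted p under 0.05, groups that do not overlap and the brighter group above background. Genes in counts of 5 or fewer, the eIF2 kinases, *Got2*, *Aldh1l1*, *Mthfs* and *Mthfd2l* were named after their values were seen. The values of some genes that the rule names are not reported here. Array gene names and probe positions are those of mm9 in the files, and promoters are those of RefSeq (GRCm38.p6). The methods call the mice littermates, but replicate numbers are not said to mark litters. Alternatives were 75th percentile scaling, normexp (offset 50), use of the series matrix, the filter dropped or set to all 6 arrays, probes or the mean of all probes in place of the brightest, folds of 1.5 and 3, the methods' t-test, limma with trend and robust settings, a replicate block, and leaving out each array.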

Additional observations from a re-analysis of the deposited data

How the results depend on the processing

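Of the 30 members called, 30 kept their direction and their call with 75th percentile scaling, normexp, the series matrix, no filter, limma with trend and robust settings, the methods' t-test, the replicate block and each array left out. With a filter on all 6 arrays 26 of the 30 were tested and 26 kept it, and with the mean of all probes 29 did, *Nupr1* turning to -0.065 (adjusted p = 0.711). The members called lower became 2 with 75th percentile scaling and 2 with the mean of all probes, where *Mthfd1* passed at -0.32 and -0.56. *Cbs* passed with 75th percentile scaling (0.69, adjusted p = 0.0490). That scaling put the median of all genes at -0.12. *Shmt1* lay between -0.23 and 0.26 with an array left out, and turned to 0.06 without control replicate 2 and to 0.26 without cKO replicate 2. Counted as probes, members gave 49 higher, 6 lower, 35 higher past 2-fold and 3 lower past 2-fold, and all probes gave 9747 lower and 2584 lower past 2-fold. At 1.5-fold, 1 member and 3293 genes were lower past the fold, and at 3-fold 546 genes were. Genes past 2-fold were 1315 higher and 666 lower with normexp, 827 lower with the series matrix and 1306 higher with the filter on all 6 arrays. Leaving out 1 array gave 29 to 29 members higher, 1 to 1 lower, 20 to 21 higher and 0 to 0 lower past 2-fold, a member median of 1.08 to 1.19, 4104 to 4338 genes higher, 4876 to 5239 lower, 1999 to 2058 higher past 2-fold and 1427 to 1503 lower past 2-fold.

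The replicate block gave 29 members higher and 1 lower and 4200 genes higher and 5079 lower. Same-numbered arrays did not deviate together (r of 0.004, -0.06 and -0.08 across genes), so the numbers were not taken as pairs, and not every array correlated best with its own number. The methods' t-test gave 29 and 1 members after Benjamini-Hochberg and 5193 and 6348 genes without it. The cause of these shifts was not tested. Levels at or near background limit the sizes for *Cth*, *Cbs*, *Slc7a3*, *Stc2*, *Aldh1l2*, *Pycr1*, *Fgf21*, *Adm2*, *Sardh* and *Amt*.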
